A study of Mus musculus with 2 samples.

Results

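Compaction and apical polarity genes were examined as a panel of 9 genes out of 52366 in the deposited UMI (unique molecular identifier) table. The panel was chosen by name: the adherens junction genes Cdh1, Ctnnb1 and Ctnna1, the apical genes Ezr, Pard3, Pard6b, Prkci and Prkcz, and the basolateral gene Scrib. Gene identifiers were given symbols with GENCODE M21. Levels come from single-embryo RNA sequencing of 24 mouse pseudoblastocysts at 96 hours post insemination (hpi), that is, of embryos with a cavity that were collected with no check for an inner cell mass (ICM). The 6 1C embryos grew from zygotes stripped of the zona pellucida at 5 hpi. The 6 2CB embryos each grew from 1 blastomere isolated at the 2-cell stage (24 hpi), and the 6 4CB and 6 8CB embryos from 1 blastomere isolated at the 4-cell or 8-cell stage (48 hpi). All came from oocytes of B6D2F1 females fertilized in vitro with sperm of ICR males. The sample labels name the pools, and the column names of the table give the group and number of each embryo. The source of each embryo, such as the parent embryo of a blastomere, is not given, so that p-values measure the spread between these embryos.

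The embryos were sequenced as 2 library pools, 1C with 8CB and 2CB with 4CB. Any difference between 2CB and 4CB on one side and 1C and 8CB on the other therefore cannot be told apart from a difference between pools. An embryo of the pool of 1C and 8CB had 70941 to 368348 UMIs, and one of the pool of 2CB and 4CB had 132725 to 1507471. Levels are given as CPM: a gene's UMIs divided by those of all tested genes in the embryo, after TMM scaling, times 1000000. A count of 0 allows a level of up to 3 counts, which is 2.12 CPM in the deepest and 43.0 CPM in the shallowest embryo. Floors of this kind cover counting error only. The intervals printed with fold changes come from the fits and also include the spread between embryos. Because each library holds a whole embryo, fewer cells of a type and less RNA per cell cannot be told apart.

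At compaction, around the 8-cell stage, E-cadherin (encoded by Cdh1) joins neighbouring blastomeres, and beta-catenin (Ctnnb1) and alpha-catenin (Ctnna1) link it to the actin cortex. The free surface then acquires an apical domain with ezrin (Ezr), which ties membrane proteins to actin, and the PAR complex of Pard3, Pard6b and an atypical protein kinase C (Prkci or Prkcz), while Scrib acts on the basolateral side. Outer cells that keep this polarity form the trophectoderm, the epithelium that encloses the cavity of the blastocyst.

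Of the 9 genes, 7 passed the filter on low counts and were tested, and Ctnnb1 and Scrib did not. The filter kept 5940 genes. A gene with few UMIs can pass through the groups in which it is high, so the counts below describe the 7 tested genes and not the panel. In the coordinates of the deposited table, which uses GRCm38, Cdh1 lies at chr8:106603351-106670246 on the plus strand and Ctnnb1 at chr9:120929216-120960507 (plus). Ezr lies at chr17:6738041-6782784 (minus), Pard3 at chr8:127063893-127612286 (plus) and Pard6b at chr2:168081004-168101203 (plus). Prkci lies at chr3:30995747-31052959 (plus), Prkcz at chr4:155260129-155361361 (minus) and Scrib at chr15:76047158-76069784 (minus). UMIs were counted over exons.

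RefSeq promoters (250 bases before to 50 after a start site, GRCm38.p6) were matched by symbol for 6 of the 9 genes. No entry was found for Cdh1 or Scrib, and Ctnna1 was left out of this search. They were searched on both strands for GGAATG (TEAD), GCCNNNGGC (AP-2) and CACCTG (E-box), motifs of factors known in the outer cells or in epithelia, which 14.7%, 16.6% and 20.2% of all 32851 promoters hold. Ezr, which had the largest fold change of the tested genes, and the kinase genes Prkci and Prkcz, which encode alternative kinases of the PAR complex, are shown 5′ to 3′ with matches in capitals. Their windows are chr17:6782731-6783030 (minus) for Ezr, chr3:30995521-30995820 (plus) for Prkci and chr4:155361379-155361678 (minus) for the most upstream of 3 Prkcz starts.
Ezr: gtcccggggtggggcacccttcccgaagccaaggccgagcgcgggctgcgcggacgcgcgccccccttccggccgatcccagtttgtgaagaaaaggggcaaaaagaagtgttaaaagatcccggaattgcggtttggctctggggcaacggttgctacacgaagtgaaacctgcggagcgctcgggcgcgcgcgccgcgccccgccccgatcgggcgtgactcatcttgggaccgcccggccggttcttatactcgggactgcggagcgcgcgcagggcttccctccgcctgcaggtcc
Prkci: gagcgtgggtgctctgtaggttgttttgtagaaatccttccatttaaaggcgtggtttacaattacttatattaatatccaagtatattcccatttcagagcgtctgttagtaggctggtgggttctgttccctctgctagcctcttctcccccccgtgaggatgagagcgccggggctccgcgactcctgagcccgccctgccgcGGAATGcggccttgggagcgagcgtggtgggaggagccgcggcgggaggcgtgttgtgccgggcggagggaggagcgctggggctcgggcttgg
Prkcz: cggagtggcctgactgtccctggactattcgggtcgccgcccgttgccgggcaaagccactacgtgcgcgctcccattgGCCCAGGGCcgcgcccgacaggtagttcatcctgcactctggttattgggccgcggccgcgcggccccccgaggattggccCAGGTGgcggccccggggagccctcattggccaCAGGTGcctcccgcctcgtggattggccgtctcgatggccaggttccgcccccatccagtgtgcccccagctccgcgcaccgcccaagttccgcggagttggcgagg
The Ezr window held none of these letters. The Prkci window held 1 TEAD match, 44 bases before the start. The Prkcz window held 1 AP-2 match, 171 bases before the start, and 2 E-box matches, 90 and 57 bases before it. Among the windows not printed, the first Pard3 start had 2 AP-2 matches, the second had 3 E-box matches, and the Pard6b window had 1 AP-2 and 2 E-box matches. The 2 Ctnnb1 windows had 1 AP-2 match each, and the third Prkcz start had 1 E-box match. The G and C content was 68.0% for Ezr, 59.67% for Prkci and 71.0% for this Prkcz start, beside a median of 52.67% over all promoters. A match describes letters in the window and is not a binding site.

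The main difference lay between the pools. Of the 7 tested genes, 6 were higher in 2CB and 4CB than in 1C and 8CB embryos and 0 were lower: Cdh1, Ctnna1, Ezr, Pard3, Prkci and Prkcz rose, and Pard6b did not pass the test. Of these calls, that of Prkci was lost when any of 11 single embryos was left out. The median log2 fold change of the 7 genes was 0.94, beside 0.12 for all 5940 tested genes. In that comparison 55.3% of all tested genes were called in either direction and 31.3% as higher, at an adjusted p below 0.1 in edgeR. None of the 7 genes separated the 12 embryos of one pool from the 12 of the other without overlap, which 5.69% of all tested genes did. The test among the 4 groups called 5 of the 7 genes (Cdh1, Ctnna1, Ezr, Pard3 and Prkcz), beside 47.1% of all tested genes. Of these, Pard3 was nearest the threshold (edgeR adjusted p = 0.0913), and 4 genes were called in 19 of the 24 fits with 1 embryo left out.

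**Figure D1:**
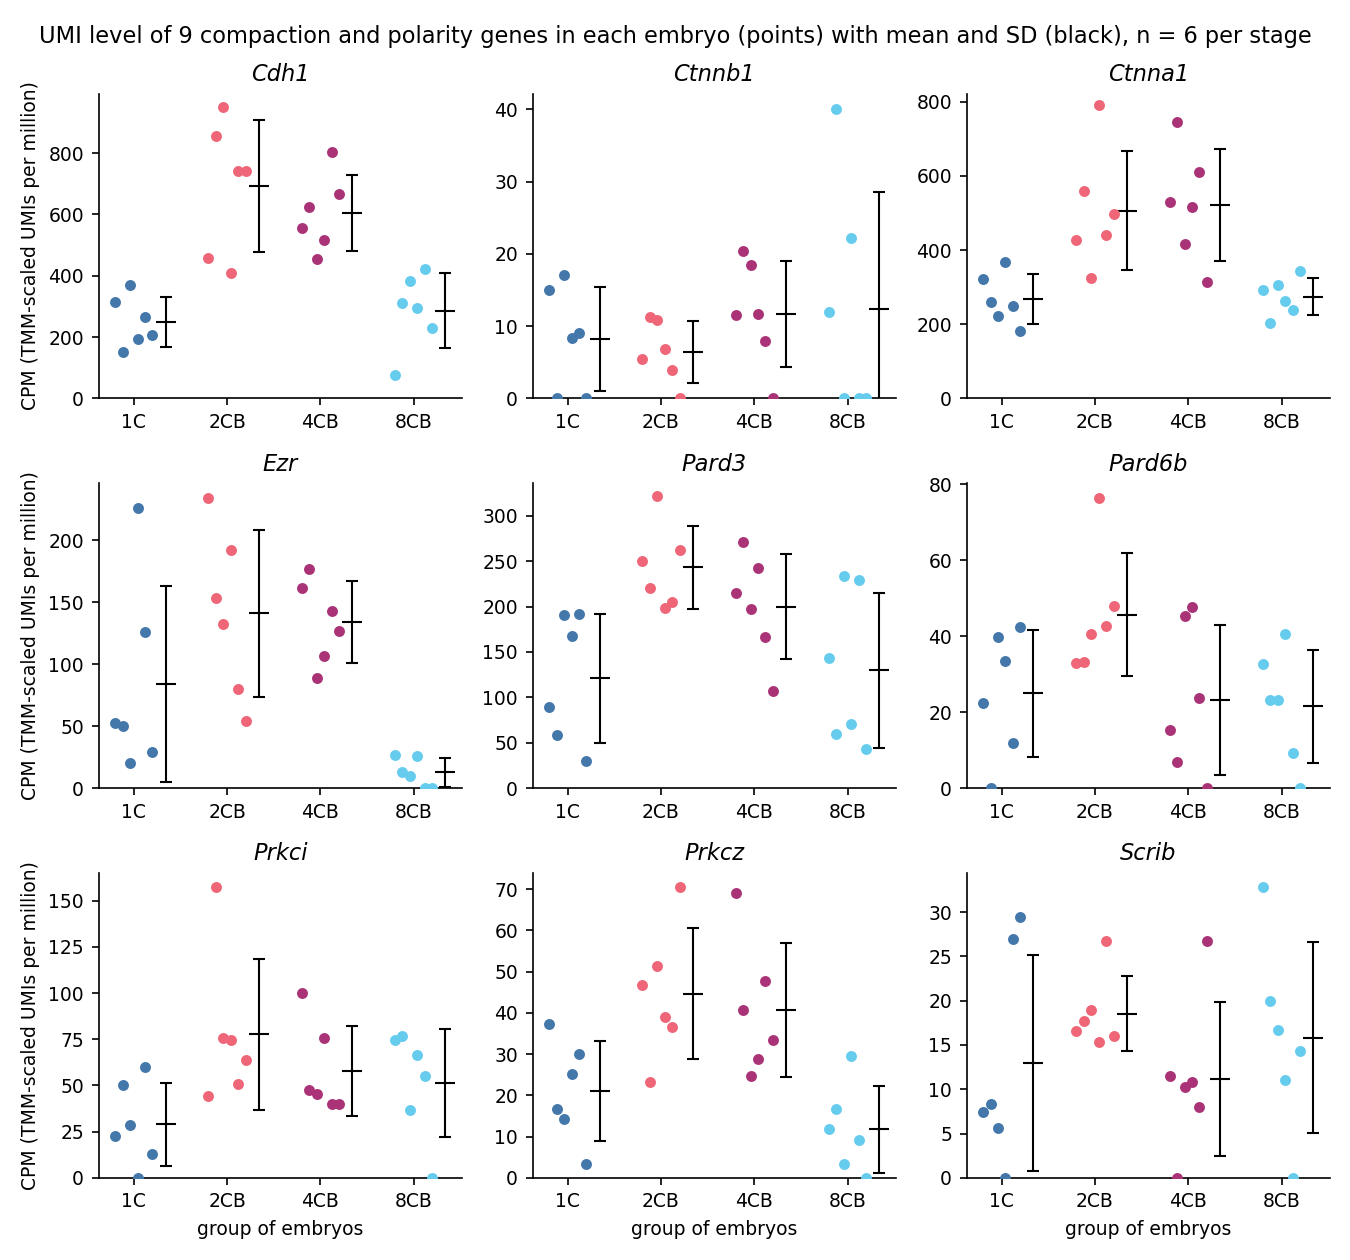
Level of each of the 9 genes in every embryo, in CPM on a linear axis that starts at 0, with points for embryos and the mean and SD of 6 embryos in black. Cdh1 and Ctnna1 are higher in most 2CB and 4CB embryos, Ezr is near 0 in 8CB and spread widely in 1C, and Ctnnb1 and Scrib reach no more than 40.0 and 32.8 CPM.

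Cdh1 was the gene of the panel with the most UMIs in all (4922). Its level was 151 to 369 CPM in 1C embryos (median 236), 408 to 950 in 2CB (median 742), 455 to 803 in 4CB (median 590) and 77.5 to 421 in 8CB (median 303). In 11 of the 12 2CB and 4CB embryos it was above every 1C and 8CB embryo, and the exception was 2CB replicate 4, at 408 CPM, which lay below the highest 8CB embryo. The means were 250 ± 82.1 (1C), 693 ± 216 (2CB), 604 ± 123 (4CB) and 286 ± 123 CPM (8CB; SD, n = 6 each). Cdh1 rose by 1.27 on the log2 scale in the pool of 2CB and 4CB (SE 0.22, 2.41-fold, edgeR adjusted p = 1.82e-05).

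Ctnna1, the link from the cadherin complex to actin, showed the same order of pools. Its level was 183 to 368 CPM in 1C embryos (median 254), 324 to 792 in 2CB (median 469), 314 to 746 in 4CB (median 523) and 203 to 344 in 8CB (median 277). In 10 of the 12 2CB and 4CB embryos it was above all 1C and 8CB embryos. Ctnna1 rose by 0.94 (log2, SE 0.18, 1.91-fold, edgeR adjusted p = 6.53e-05), and the spread among 8CB embryos (coefficient of variation 18.4%) was the narrowest of this gene's 4 groups. The UMI ratio of Cdh1 to Ctnna1 within an embryo had a median of 1.02 (1C), 1.51 (2CB embryos), 1.07 (4CB embryos) or 1.19 (8CB), and the ranges overlapped (0.523 to 1.67 in 1C against 0.515 to 2.93 in 2CB).

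Ezr had the largest fold change of the 7 genes and, in 1C and 8CB embryos, the largest coefficient of variation among them (94.0% and 93.6%). Its level was 54.4 to 234 CPM in 2CB embryos (median 143) and 88.5 to 176 CPM in 4CB embryos (median 135). In 8CB embryos it was 0 to 26.8 CPM (median 11.7), with 23 UMIs over the 6 embryos, and every 8CB embryo lay below every 2CB and 4CB embryo. Replicates 5 and 6 of 8CB had 0 UMIs, which allows up to 27.5 and 43.0 CPM. In 1C embryos the level was 52.3, 50.2, 19.9, 226, 126 and 29.4 CPM in replicates 1 to 6. Thus 4 of the 1C embryos lay between 19.9 and 52.3 CPM, below all 2CB and 4CB embryos, and replicates 4 and 5 lay within the range of 2CB and 4CB. Ezr rose by 1.93 in the pool of 2CB and 4CB (log2, SE 0.36, 3.82-fold, edgeR adjusted p = 6.57e-05), with 1.77 to 2.15 when any 1 embryo was left out and 2.63 when all embryos were thinned to the total of the shallowest.

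Of the PAR complex genes, the scaffold gene Pard3 was higher in 2CB and 4CB, with much overlap. Its level was 29.4 to 192 CPM in 1C embryos (median 129), 199 to 321 in 2CB (median 236), 107 to 271 in 4CB (median 206) and 43.0 to 233 in 8CB (median 107). All 6 2CB embryos were above all 1C embryos, while 8CB embryos fell into values of 43.0 to 143 CPM in 4 of them and of 229 and 233 CPM in replicates 5 and 3. Pard3 rose by 0.80 (log2, SE 0.27, 1.74-fold, edgeR adjusted p = 0.0170). The coefficient of variation of Pard3 was 58.6% in 1C and 65.99% in 8CB, against 18.8% in 2CB and 29.1% in 4CB. A test of these spreads was not made.

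Pard6b, the adaptor that holds the kinase in the complex, did not pass the test between pools. Its level was 0 to 42.5 CPM in 1C embryos (median 27.9), 33.1 to 76.5 in 2CB (median 41.6), 0 to 47.6 in 4CB (median 19.6) and 0 to 40.7 in 8CB (median 23.3). The 2CB embryos were the only group in which Pard6b had UMIs in all 6 embryos. The log2 fold change between pools was 0.45 (SE 0.39, 95% interval -0.34 to 1.25, edgeR adjusted p = 0.351), so that a change of 1 on the log2 scale lay within the interval. Beyond the group means, Pard6b correlated with log2 total UMIs of the embryo (r = 0.62 over 24 embryos), as did Prkci (r = 0.51). The other 5 tested genes had r between -0.17 and 0.13.

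The atypical kinase genes Prkcz and Prkci were both called higher in 2CB and 4CB. Prkcz was 3.27 to 37.3 CPM in 1C embryos (median 20.9), 23.4 to 70.4 in 2CB (median 43.0), 24.7 to 69.1 in 4CB (median 37.0) and 0 to 29.6 in 8CB (median 10.5). In 7 of the 12 2CB and 4CB embryos Prkcz was above all 1C and 8CB embryos. It rose by 1.33 (log2, SE 0.36, 2.52-fold, edgeR adjusted p = 0.00280). Prkci was 0 to 59.9 CPM in 1C embryos (median 25.4), 44.1 to 157 in 2CB (median 69.4), 39.7 to 99.8 in 4CB (median 46.4) and 0 to 76.7 in 8CB (median 60.7). Only 2 of the 12 2CB and 4CB embryos were above all 1C and 8CB embryos for Prkci, 2CB replicate 2 (157 CPM) and 4CB replicate 1 (99.8 CPM).

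Prkci rose by 0.74 (log2, SE 0.34, 1.67-fold, edgeR adjusted p = 0.0702). This call was lost when 1C replicate 1, 3, 4 or 6, 2CB replicate 2 or 3, 4CB replicate 1 or 4, or 8CB replicate 3, 5 or 6 was left out, and held in the other 13 of 24 cases. Without 2CB replicate 2 the value was 0.52 (edgeR adjusted p = 0.212), the lowest of the 24. The UMI ratio of Prkcz to Prkci within an embryo had a median of 0.50 (1C), 0.702 (2CB embryos), 0.763 (4CB embryos) or 0.167 (8CB). The 8CB ratios ran from 0.0909 to 0.444 over the 5 embryos with Prkci UMIs, and the 4CB ratios from 0.381 to 1.20. These ratios were given no test.

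Ctnnb1 and Scrib had 93 and 152 UMIs over all 24 embryos and were at 0 in 7 and 3 embryos. Ctnnb1 reached 17.0 CPM in 1C, 11.3 CPM in 2CB, 20.3 CPM in 4CB and 40.0 CPM in 8CB embryos, and each group had embryos at 0. Scrib was 0 to 29.4, 15.3 to 26.8, 0 to 26.7 and 0 to 32.8 CPM in the same order. All groups overlapped for both genes. With no filter on low counts, the log2 fold change between pools was -0.29 for Ctnnb1 (SE 0.57, 95% interval -1.41 to 0.82, edgeR adjusted p = 0.989) and -0.15 for Scrib (SE 0.48, -1.09 to 0.79, edgeR adjusted p = 1.00). These intervals are wide at this depth.

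In the deposited annotation, Ctnnb1 shares 759 exon bases with Ulk4 on the opposite strand, and these cover 475 of the last 500 exon bases of Ctnnb1, the end from which CEL-Seq2 tags are read. Ulk4 itself had 23 UMIs. The strand setting and the treatment of reads that fall on both genes are not given in the sources used here, so the low level of Ctnnb1 is uncertain, and the part of this overlap in it was not tested. Ezr shared 2 exon bases with Sytl3, and the other tested genes shared none with a neighbour.

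**Figure D2:**
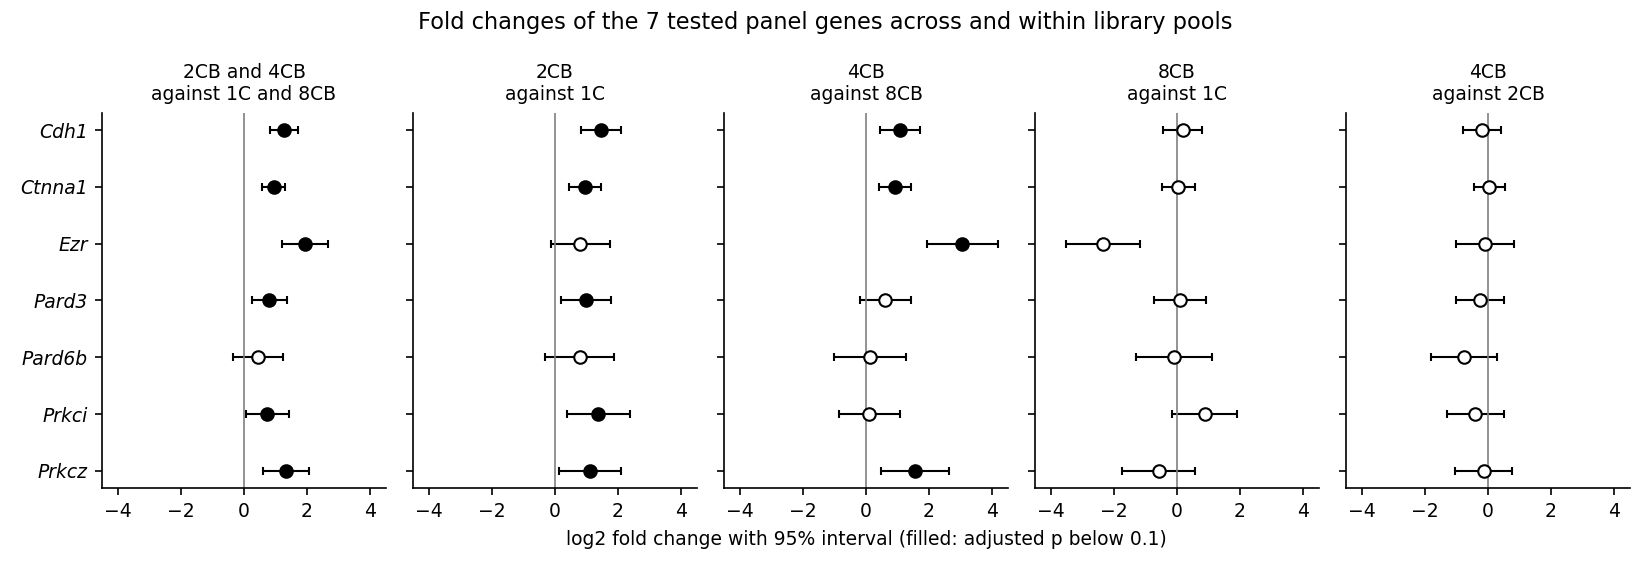
Log2 fold changes of the 7 tested genes with 95% intervals in the comparison across pools, in 2 comparisons across pools that share no embryo, and in the comparisons within each pool. Filled points passed an adjusted p below 0.1 in edgeR; 6, 5 and 4 genes are filled in the first 3 panels and none in the panels of 8CB against 1C and of 4CB against 2CB.

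The pools were also compared in 2 sets that share no embryo. In 2CB against 1C embryos, 5 genes were higher (Cdh1, Ctnna1, Pard3, Prkci and Prkcz), beside 41.5% of all tested genes called, and 3 were called without 1C replicate 2, 1C replicate 6 or 2CB replicate 3. In 4CB against 8CB embryos, 4 genes were higher (Cdh1, Ctnna1, Ezr and Prkcz), beside 40.2% of all tested genes. Prkcz was not called in either set with no filter on low counts (edgeR adjusted p = 0.178 and 0.118). Cdh1 rose by 1.46 (SE 0.31) and 1.07 (SE 0.31), and Ctnna1 by 0.94 (SE 0.25) and 0.93 (SE 0.25) on the log2 scale. Ezr differed by 0.81 in 2CB against 1C (SE 0.46, edgeR adjusted p = 0.184) and rose by 3.06 in 4CB against 8CB (SE 0.56, edgeR adjusted p = 0.000117). Prkci rose by 1.38 in 2CB against 1C (SE 0.48, edgeR adjusted p = 0.0276) and differed by 0.11 in 4CB against 8CB (SE 0.47, edgeR adjusted p = 0.891). The test of the difference between these sets called 0 of the 7 genes and 0 of all tested genes (0%) in edgeR, with 532 genes at an unadjusted p below 0.05 and 34 called by DESeq2, none of the 7 among them. The difference was 2.25 for Ezr (SE 0.72, edgeR adjusted p = 0.339) and -1.27 for Prkci (SE 0.68, edgeR adjusted p = 0.584).

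Within the pool of 1C and 8CB, 0 of the 7 genes were called in 8CB against 1C, and the ranges of the 2 groups overlapped for each of them. Over all tested genes 0 (0%) were called in edgeR, 550 had an unadjusted p below 0.05 and DESeq2 called 43. The log2 fold change of 8CB against 1C was 0.18 for Cdh1 (95% interval -0.45 to 0.81), 0.05 for Ctnna1 (-0.47 to 0.56) and 0.09 for Pard3 (-0.72 to 0.91). It was 0.87 for Prkci (-0.16 to 1.91) and -0.58 for Prkcz (-1.73 to 0.57), whose intervals cover 0. Ezr was the gene of the 7 with an unadjusted p below 0.05, at -2.35 (SE 0.57, edgeR adjusted p = 0.184). DESeq2 called it at -2.39 (adjusted p = 0.0405), and edgeR with no filter at -2.27 (adjusted p = 0.00344). Without 1C replicate 4 the value was -1.82, with thinned counts it was -3.53 (edgeR adjusted p = 0.245), and the adjusted p over the 24 fits with 1 embryo left out ranged from 0.154 to 0.327.

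Within the pool of 2CB and 4CB, 0 of the 7 genes differed in edgeR, 0 at an unadjusted p below 0.05 and 0 in DESeq2. Over all tested genes 0.0337% were called, with 263 at an unadjusted p below 0.05 and 10 called by DESeq2. The log2 fold change of 4CB against 2CB ran from -0.76 for Pard6b (95% interval -1.82 to 0.29) to 0.04 for Ctnna1 (-0.45 to 0.53). For Cdh1 it was -0.21 (-0.81 to 0.40) and for Ezr -0.10 (-1.01 to 0.81). In simulated counts, 200 of 5940 genes were given a change of 1 on the log2 scale. The test between pools recovered 46.5% of these genes, the test of 8CB against 1C 8.5% and that of 4CB against 2CB 7%. In the data the test between pools called 55.3% of tested genes, so 46.5% is not its rate of recovery there.

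Markers of the trophectoderm moved with the same division. Of 8 trophectoderm markers, 7 were higher in 2CB and 4CB (Cdx2, Gata3, Krt8, Krt18, Krt7, Eomes and Elf5) and Tfap2c was lower, in a comparison that called 55.3% of all tested genes in either direction and 31.3% as higher. Their summed level was 2531 to 5600 CPM in 2CB and 4CB embryos and 426 to 1096 CPM in 1C and 8CB embryos, with no overlap. Elf5 was at 0 in all 1C embryos. Of 6 tested ICM and epiblast markers, 2 were higher (Sox2 and Tdgf1) and 4 lower (Nanog, Klf2, Klf4 and Esrrb), with a summed level over 7 listed genes of 313 to 1078 CPM against 645 to 2152 CPM. Of 4 tested primitive endoderm markers, 3 were higher and Gata6 lower, with summed levels of 819 to 1639 against 678 to 1138 CPM. The 6 markers of cumulus and granulosa cells were at 0 in every embryo. The 6 oocyte markers summed to 0 to 21.8 CPM in 2CB and 4CB and 9.99 to 112 CPM in 1C and 8CB. The part of these cell types in the levels of the panel was not tested. The 1C replicates 4 and 5, with the high Ezr levels, had summed trophectoderm levels of 879 and 892 CPM, the highest of the 6 1C embryos (the next was 872 CPM) and below the highest 8CB embryo (1096 CPM).

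**Figure D3:**
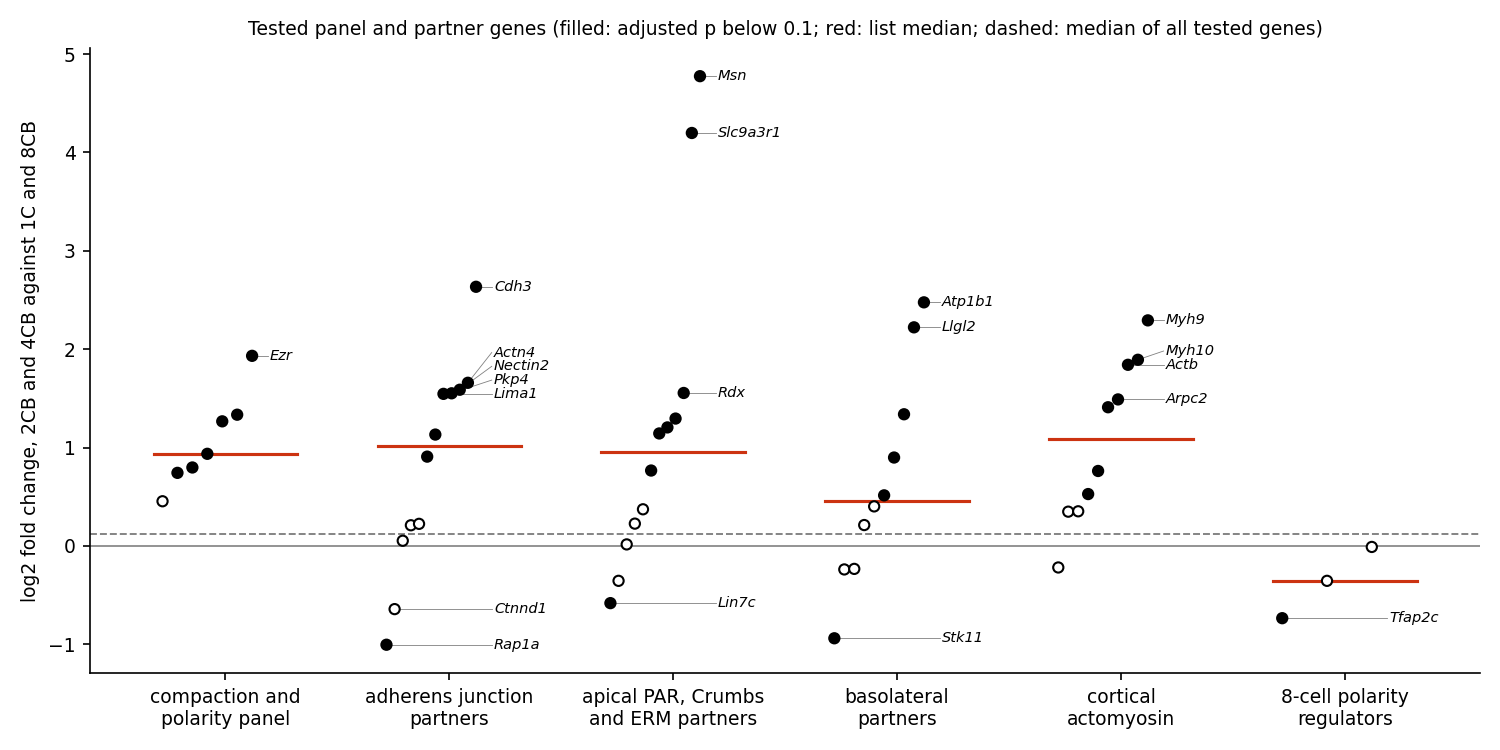
Log2 fold change between pools (2CB with 4CB minus 1C with 8CB) for each tested gene of the panel and of 5 partner lists (points, filled where the edgeR adjusted p is below 0.1), with list medians in red and the median of all tested genes dashed. The medians are 0.94 for the panel, 1.02, 0.95, 0.46 and 1.09 for the adherens, apical, basolateral and actomyosin lists, and -0.36 for the regulators.

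Partner genes were taken from 5 lists, all in the comparison of 2CB and 4CB with 1C and 8CB, in which 55.3% of all tested genes were called. Of 18 adherens junction partners, 12 were tested, 7 were higher and 1 lower, with a median log2 fold change of 1.02. Cdh3, P-cadherin, rose most (2.63, SE 0.65, edgeR adjusted p = 0.00138), from 0 to 37.3 CPM in 1C and 8CB to 0 to 217 CPM in 2CB and 4CB. The actin crosslinker Actn4 rose by 1.66, the nectin Nectin2 by 1.59 and the plakophilin Pkp4 by 1.55. Rap1a, a small GTPase, was lower (-1.01, SE 0.23), while its close relative Rap1b was at 0.05 (SE 0.23, edgeR adjusted p = 0.871). Catenin delta, Ctnnd1, was at -0.64 and not called (SE 0.50).

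Of 14 apical PAR, Crumbs and ERM partners, 12 were tested, 7 were higher and 1 lower, with a median of 0.95. The largest changes were those of Msn and Slc9a3r1. Moesin (Msn), a relative of ezrin, was 0 to 75.3 CPM in 1C and 8CB embryos and 230 to 1031 CPM in 2CB and 4CB embryos (log2 fold change 4.78, SE 0.42, edgeR adjusted p = 3.20e-10). Slc9a3r1, which encodes NHERF1, a scaffold that binds these proteins, was 0 to 33.5 against 66.8 to 208 CPM (4.20, SE 0.41, edgeR adjusted p = 2.41e-09). The embryos of the 2 pools did not overlap for either gene, as was so for 5.69% of all tested genes. Radixin (Rdx), the other relative, rose by 1.55 (SE 0.27), from 96.6 to 839 CPM in 1C and 8CB to 721 to 1717 CPM in 2CB and 4CB, with some overlap. Patj, a scaffold of the Crumbs complex, rose by 1.29 (SE 0.44), and Lin7c, of the same complex, fell by 0.58 (SE 0.24).

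**Figure D4:**
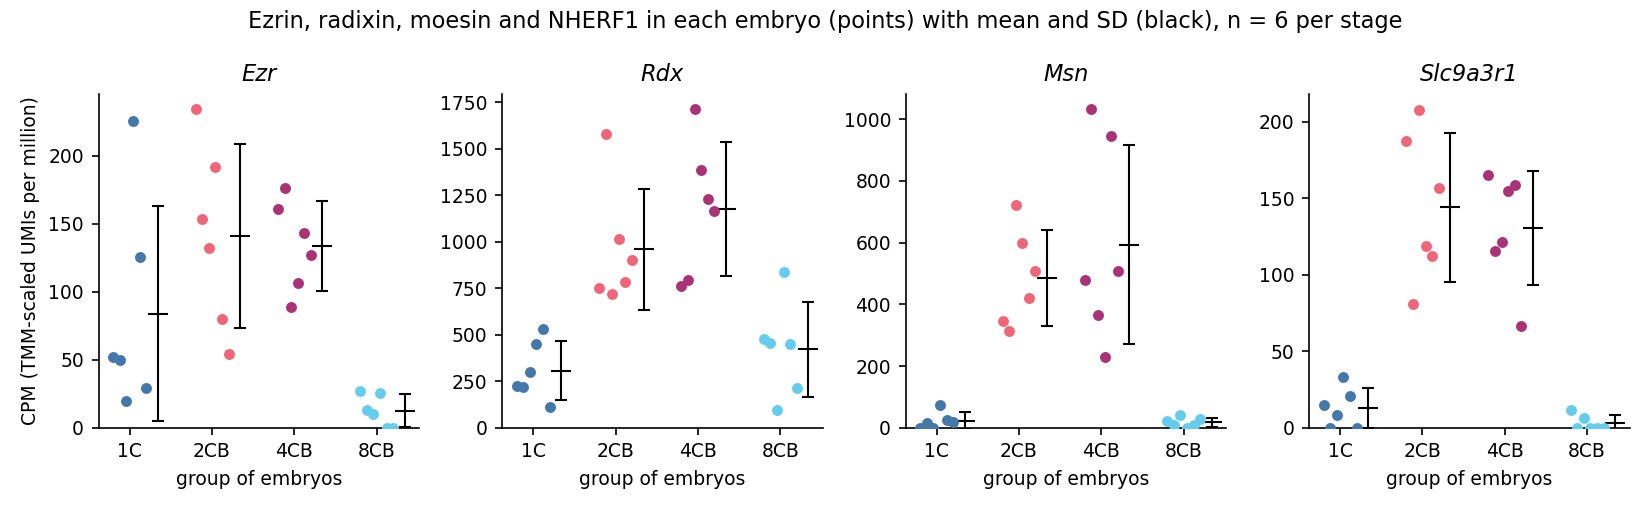
Ezr, its relatives Rdx and Msn, and Slc9a3r1 in every embryo, in CPM on linear axes that start at 0, with points for embryos and the mean and SD of 6 embryos in black. Msn and Slc9a3r1 separate 2CB and 4CB from 1C and 8CB without overlap, as do 5.69% of all tested genes. Ezr alone of the 4 has 1C embryos, at 126 and 226 CPM, well inside the range of 2CB and 4CB.

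In 1C replicate 4, the embryo with the highest Ezr level of its pool, Msn (75.3 CPM) and Slc9a3r1 (33.5 CPM) were also at the highest level of that pool, and in 1C replicate 5 Slc9a3r1 was next, at 21.0 CPM. Msn in 1C replicate 5 was at 26.9 CPM, below 8CB replicates 3 and 6 (40.0 and 28.7 CPM). These embryos were looked at after their Ezr levels were seen. Both genes stayed below the lowest 2CB and 4CB embryo (230 and 66.8 CPM).

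Of 13 basolateral partners, 10 were tested, 5 were higher and 1 lower, with a median of 0.46. Atp1b1, the beta subunit of the sodium pump, rose by 2.48 (SE 0.54), and Llgl2 and Dlg1, which act with Scrib, rose by 2.22 (SE 0.32) and 1.34 (SE 0.20). Erbin rose by 0.90 (SE 0.42, edgeR adjusted p = 0.0797). Stk11, the kinase LKB1, fell by 0.94 (SE 0.34). Of 16 cortical actomyosin genes, 10 were tested, 7 were higher and 0 lower, with a median of 1.09. The nonmuscle myosin heavy chains Myh9 and Myh10 rose by 2.29 (SE 0.26) and 1.89 (SE 0.23), and Arpc2, of the Arp2/3 complex, rose by 1.49 (SE 0.18). Actb rose by 1.84 (SE 0.21). Actg1 had 49 UMIs beside 22717 of Actb and did not pass the filter, and the split of reads between these genes was not tested. Of 5 regulators of polarity at the 8-cell stage, 3 were tested and 0 were higher: Tfap2c fell by 0.74 (SE 0.23), and Tead4 (-0.01, SE 0.19) and Rhoa (-0.36, SE 0.20) were not called. Tfap2c is also 1 of the trophectoderm markers, and Rhoa also stands among the apical partners. Within the pools, none of the genes of these 5 lists was called in 8CB against 1C or in 4CB against 2CB. Over all tested genes, 0% and 0.0337% were called in these comparisons.

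Correlations between pairs of the tested genes within groups were given no test, and more of them were positive than negative. After group means were subtracted, the correlation of log2 CPM over 24 embryos was highest for Ezr with Prkcz (r = 0.50) and Prkci with Prkcz (r = 0.41) and lowest for Cdh1 with Ezr (r = -0.38). Cdh1 and Ctnna1, partners in 1 complex, had r = -0.22 within groups and r = 0.54 without the subtraction. Embryos of a pool share its library and differ in depth, and the part of either in these values was not tested.

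The genes most like each tested gene over the 24 embryos were sought among up to 3693 others with a mean of at least 50 CPM. Ezr was most like Add1, adducin, a linker of spectrin and actin (r = 0.89, and 0.75 after group means were subtracted), and then Tnrc6c (0.87 and 0.58). Cdh1 was most like Cox4i1 (0.84 and 0.66) and Pcsk6 (0.84 and 0.53), and Ctnna1 like Lmna (0.84 and 0.49) and Arpc5 (0.84 and 0.49). Pard3 was most like Cd2ap (0.81 and 0.73) and Ube2h (0.80 and 0.72), and Pard6b like Map4 (0.77 and 0.82) and Ubac2 (0.77 and 0.72). Prkci was most like Myl12a, a myosin light chain (0.88 and 0.85), and Sod2 (0.87 and 0.84), and Prkcz like Cyhr1 (0.83 and 0.68) and Tbl1x (0.83 and 0.70). The values of 0.82 to 0.85 after subtraction belonged to Pard6b and Prkci, the genes that also correlated with the embryo's log2 total UMIs (r = 0.62 and 0.51), and the part of depth in these values was not tested.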

How the data were processed

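The deposited values were UMI counts, whole and not normalized, for each gene in each embryo. Following the study's methods, the authors prepared CEL-Seq2 libraries, sequenced them, aligned reads to GRCm38 with HISAT2 (2.2.6 in the submitters' processing notes), collapsed reads that shared a UMI and counted them with HTSeq (0.6.1). The annotation release and strand setting are not given in the sources used here. Another 24 columns, of morulae, were not used.

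Here, counts were fitted in edgeR 4.0.16 (R 4.3.3): filterByExpr, TMM factors of 0.928 to 1.07, a quasi-likelihood model with 1 mean per group over all 24 embryos, and Benjamini-Hochberg adjustment over 5940 genes, called below 0.1, the rate that the study used. Genes named are the panel, up to 4 called genes each way per partner list, and the 2 nearest genes by correlation (log2 CPM, prior count 2). Rhoa, Rap1b, Ctnnd1, Actg1 and Tead4 were named after their values were seen. The members and lists were chosen with earlier results of these data known. Alternatives were DESeq2 1.42.0, DESeq2 size factors, 2 other filters, an adjusted p below 0.05, thinning to 70941 UMIs, a block for the replicate number, fewer embryos in the fit and each embryo left out. A fit with 1 mean per pool was added after the data were seen. The fits were tested on simulated counts in which 200 of 5940 genes were changed, fewer than the data called across pools. Changes of 2 on the log2 scale were recovered at 87.5% across pools, 69% for 8CB against 1C and 84% for 4CB against 2CB. In the same order, 6.42%, 12.1% and 7.18% of the calls were false. Same-numbered embryos did not deviate together on average (mean r = -0.016 over 36 pairs), and no pairing is given, so embryos were treated as unpaired.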

Additional observations from a re-analysis of the deposited data

Results flagged for a closer look

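In each of 36 sets of 6 embryos (9 genes in 4 groups), the gap of the highest and of the lowest embryo to its nearest neighbour, divided by the range of the set, was compared with Dixon's critical value for 6 samples. With both ends tested, chance flags about 1 in 20 such sets. The gap was above that value in 3 sets, each time for the highest embryo, and all 3 were 2CB embryos. Prkci was at 157.1 CPM in 2CB replicate 2, beside 75.6 CPM in the next embryo (gap 0.721). Pard6b was at 76.49 CPM in 2CB replicate 4, beside 48.02 CPM (gap 0.656). Scrib was at 26.77 CPM in 2CB replicate 5, beside 18.9 CPM (gap 0.686). Without 2CB replicate 2 Prkci was no longer called between pools. Pard6b was not called with or without 2CB replicate 4.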

How the results depend on the processing

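The count of 6 genes called higher in 2CB and 4CB than in 1C and 8CB was 5 or 6 with any 1 embryo left out, and Cdh1, Ctnna1, Ezr, Pard3 and Prkcz were called in each of these 24 fits. Thinning to 70941 UMIs left Cdh1, Ctnna1, Ezr and Pard3 to test. It gave 3 calls among the 4 groups (5 at full depth, 4 of them among these genes), beside 1059 of 2014 over all genes. In 2CB against 1C it gave 2 calls (5 at full depth, 3 of them among these genes), beside 930 of 2014. Thinned, Ezr was at 2.63 across pools and -3.53 in 8CB against 1C; the cause was not tested. For 2CB against 1C the count ran from 3 to 6 with 1 embryo left out, and was 3 without 1C replicate 2, 1C replicate 6 or 2CB replicate 3. For 8CB against 1C, DESeq2 and the fit with no filter each gave 1 call, Ezr, beside 43 of 5939 and 104 of 23171 over all genes. Prkci was not called with no filter (0.73, edgeR adjusted p = 0.102) or at an adjusted p below 0.05; the cause was not tested. Prkcz in 2CB against 1C (edgeR adjusted p = 0.0775) also missed 0.05. The fit with 1 mean per pool, chosen after seeing the data, called 5 of 6 tested genes, beside 2528 of 4537 over all genes. Prkcz did not pass the filter of that fit on low counts, and Ezr was at 1.52 (1.93 with 1 mean per group). Among the 4 groups, the count ran from 4 to 6 with 1 embryo left out. Uncalled values within pools changed sign as follows: thinned, Cdh1 was at -0.012 in 8CB against 1C and Ezr at 0.33 in 4CB against 2CB, and with no filter Ctnna1 was at -0.13 in 4CB against 2CB. With 1 embryo left out, 8CB against 1C ran from -0.045 to 0.158 for Ctnna1, from -0.20 to 0.29 for Pard3 and from -0.32 to 0.14 for Pard6b, and 4CB against 2CB from -0.10 to 0.23 for Ctnna1, from -0.24 to 0.12 for Ezr and from -0.392 to 0.052 for Prkcz. With the replicate number as a block, Ezr was at 0.030 in 4CB against 2CB, and the counts of called genes in the 7 tests were those without the block (6 across pools). The column names give embryos only a number. Same-numbered embryos did not deviate together on average, which cannot show that they share no source or handling. In the shallowest embryo, 8CB replicate 6, Ctnnb1, Ezr, Pard6b, Prkci and Prkcz had 0 UMIs and Scrib had 1. Ezr was also at 0 in 8CB replicate 5, and the part of depth in these counts was not tested.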
